A study of Mus musculus with 24 samples.

Results

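The JAK-STAT genes described here are 10: the cytokine receptor gene Il7r, the kinase genes Jak1 and Jak3, the transcription factor genes Stat5b, Stat5a and Stat3, the feedback inhibitor genes Cish, Socs1 and Socs2, and the kinase gene Pim1. They were chosen by name as genes of the pathway that works downstream of the Abl kinase, and each was taken as its gene body plus 20 kb on either side in mm9 (GENCODE vM1 annotation), with the Stat5b-Stat5a-Stat3 stretch of chromosome 11 treated as 1 locus. Within these 8 windows, overlapping peaks of CTCF and of Rad21 from all 16 deposited peak lists were merged into sites. That gave 146 sites of 90337 on the main nuclear mouse chromosomes. Sites are numbered from left to right within each window. The sites were selected on, and classed by, the same peaks that are described below, so counts and values are descriptions without a test.

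The cells were v-Abl transformed mouse pro-B lines, RAG2 deficient and carrying Emu-Bcl2, and every group had 3 uM STI-571, an inhibitor of the Abl kinase, for 4 days. Rad21 ChIP was made in the Rad21degron line without IAA (2 libraries) and with IAA (2 libraries), in the parental line without IAA (3 libraries) and in the CTCFdegron line with IAA (3 libraries). CTCF ChIP was made in the parental line without IAA (3 libraries) and in the CTCFdegron line with IAA (3 libraries). IAA, an auxin that triggers degradation of the tagged protein, was given at 500 uM for 6 h before STI-571 and then together with it. In the CTCF comparisons the line and IAA change together, so their effects cannot be told apart. Nothing in the labels says whether libraries of a group came from separate cultures, and the meaning of the short codes in the peak names is not given. All groups had STI-571, so no cells with active Abl kinase are compared, and peak lists hold no expression values with which to check the cell type.

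In a pro-B cell, interleukin 7 binds the receptor encoded by Il7r, the receptor-bound kinases Jak1 and Jak3 phosphorylate STAT proteins, and phosphorylated STAT dimers bind DNA at sites close to TTCNNNGAA. STAT5 in turn drives Pim1 and the genes Cish, Socs1 and Socs2, whose products inhibit cytokine signalling. v-Abl is known to activate this pathway without a cytokine. Rad21 is a subunit of cohesin, a ring that extrudes loops of chromatin, and CTCF is a zinc-finger protein that binds an oriented DNA motif and halts cohesin there, so that both proteins are commonly found at the same place.

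The lists held 29721 to 67809 mouse peaks for parental Rad21, 15689 to 35223 for CTCF-degron Rad21, 22084 and 32912 for untreated Rad21-degron cells, 1383 and 3587 for the same cells with IAA, 46656 to 52356 for parental CTCF and 8214 to 15753 for CTCF-degron CTCF. Of the 146 sites, 59 had a peak in 1 list alone, and 40 of those were in parental Rad21 replicate 1, the longest list. Read depth is unknown. A control site is one with a peak in every control library of its comparison. It is called lost when no depleted library has a peak there, kept when every one does, and kept in part otherwise. There were 32 Rad21 control sites in untreated Rad21-degron cells, 35 in parental cells and 36 CTCF control sites in parental cells, 49 different sites in all, of which 17 lay within 1000 bp of an annotated transcript start (promoter sites). A missing peak means that the authors' list has none there, not that no protein was bound.

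The sequences under the CTCF peaks are shown first because CTCF binds an oriented motif. For each locus, the match to a CTCF matrix in the strongest parental CTCF site that has one is shown in mm9, with 60 bases in the orientation of the motif and the matched bases in capitals. No Il7r site had a match.
Jak1 site 1, in an intron of the neighbouring gene Raver2, chr4:100818875-100818934, minus strand: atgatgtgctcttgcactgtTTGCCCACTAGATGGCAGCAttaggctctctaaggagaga
Jak3 site 1, in an intron of Unc13a, chr8:74184834-74184893, minus strand: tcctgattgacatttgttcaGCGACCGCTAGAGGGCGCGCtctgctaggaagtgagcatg
Stat locus site 23, in an exon of Stat3, chr11:100754913-100754972, plus strand: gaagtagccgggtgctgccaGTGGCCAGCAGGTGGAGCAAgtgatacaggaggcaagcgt
Cish site 1, intergenic near the Mapkapk3 start, chr9:107193408-107193467, minus strand: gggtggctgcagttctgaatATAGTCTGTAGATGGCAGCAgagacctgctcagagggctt
Socs1 site 9, intergenic, beside the Socs1 start, chr16:10786600-10786659, minus strand: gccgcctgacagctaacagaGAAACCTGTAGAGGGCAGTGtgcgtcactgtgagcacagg
Socs2 site 3, in a Socs2 intron, chr10:94852608-94852667, plus strand: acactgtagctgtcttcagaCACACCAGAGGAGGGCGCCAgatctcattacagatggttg
Pim1 site 15, intergenic, chr17:29651534-29651593, minus strand: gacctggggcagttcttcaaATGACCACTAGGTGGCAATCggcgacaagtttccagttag

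A match was found in 21 of the 36 CTCF control sites at the 10 genes (58.3%), against 66.6% of 31884 CTCF control sites elsewhere. The threshold was set so that 5.0% of sequences of the same 500 bp length taken 5 kb away pass it. The 31884 sites include the 7971 from which the matrix was learnt, and the sites at the 10 genes took no part in the learning. By fate, 14 of 20 lost sites, 4 of 7 sites kept in part and 3 of 9 kept sites had one; elsewhere the shares were 73.9% of lost and 46.8% of kept sites. Over the 51 matrix settings that were tried, the matches ranged from 9 to 14 among lost sites and from 0 to 3 among kept sites, and the setting used gave the highest number in both. With a threshold passed by only 1% of distant sequence, 7 of the 36 sites matched (19.4%), against 29.5% elsewhere.

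Some of these stretches resembled each other. The 60 bases of Pim1 site 8, below the match threshold, and of Pim1 site 11 were identical at 56 positions, and those of Socs2 site 3 and Pim1 site 11 at 55, whereas the median over all 630 pairs of CTCF control sites in the windows was 35.0% identity. Others were less alike: Pim1 site 11 shared 43 of its 60 bases with Stat locus site 4, 42 with Stat locus site 32 and 38 with Pim1 site 12. These 4, picked after the sequences were seen, read as follows.
Pim1 site 11, chr17:29638323-29638382, plus strand: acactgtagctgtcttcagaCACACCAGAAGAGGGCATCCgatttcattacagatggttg
Pim1 site 12, chr17:29640792-29640851, plus strand: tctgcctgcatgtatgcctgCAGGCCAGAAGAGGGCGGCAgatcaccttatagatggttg
Stat locus site 4, chr11:100639760-100639819, plus strand: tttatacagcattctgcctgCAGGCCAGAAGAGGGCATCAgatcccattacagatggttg
Stat locus site 32, chr11:100811042-100811101, minus strand: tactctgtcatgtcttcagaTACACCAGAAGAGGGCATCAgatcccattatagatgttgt
The 20 matched bases of 8 of the 21 sites occur at 2 or more places in mm9, up to 602 places for Stat locus site 32, and 31.2% of the matches elsewhere do. Of these 8 sites, 6 lost CTCF, 2 kept it in part and none kept it, and 4 were Rad21 control sites. Of the 13 sites whose match occurs once, 8 lost CTCF, 2 kept it in part and 3 kept it, and 12 were Rad21 control sites. Elsewhere, 84.3% of sites with a repeated match lost CTCF and 5.6% kept it, against 74.3% and 11.2% of those with a single match, and Rad21 control sites made up 51.1% of repeated and 68.2% of single matches. How reads that map to several places were treated is not given in the sources used here.

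After degradation of Rad21, no peak remained at any of these genes. All 32 Rad21 control sites were lost, against 92.3% of 18427 control sites on the main nuclear chromosomes, and neither list made with IAA held a single peak in the 8 windows. At Stat locus site 23, untreated cells had a fold enrichment over background, as deposited, of 15.7 and 10.8, and at Pim1 site 15 they had 12.13 and 11.97, so that each was above the other in 1 list. By mean percentile rank of fold enrichment within the control lists, these placed 39th and 56th of the 18427 sites. Both IAA lists are far shorter than the untreated ones. They also hold fewer peaks of the human spike-in, 5603 and 5481 against 11861 and 14878.

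After degradation of CTCF, the CTCF control sites at the 10 genes split: 20 of 36 were lost, 7 were kept in part and 9 were kept. Over the main nuclear chromosomes, 69.7% of 33429 CTCF control sites were lost and 13.6% were kept. Of the 35 parental Rad21 control sites, 8 were lost, 9 were kept in part and 18 were kept in the same cells, against 41.4% lost and 35.7% kept of 24941. With parental Rad21 replicate 3 left out, 22 of 63 Rad21 control sites were lost, a share of 34.9% against 47.2% over the chromosomes. The share at the 10 genes was the higher one when a peak in 1 control library sufficed (61.9% against 59.4%), in the pair of libraries numbered 1 (63.2% against 60.4%) and with all lists shortened to the shortest (3 of 4 sites, against 55.4%). For CTCF it was the higher one with the shortened lists alone (1 of 1 site, against 59.4%). Of the 8 lost Rad21 sites, 3 were among the 4 control sites of Jak1 and 3 among the 9 of the Stat stretch. Of the 20 lost CTCF sites, 4 were among the 4 of Jak1 and 8 among the 11 of the Stat stretch. The Stat stretch had the most control sites in both comparisons, and its shares lost were 33.3% and 72.7%. No Rad21 control site was lost at Il7r (of 3), Cish (of 3), Socs1 (of 2) or Socs2 (of 4).

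**Figure D1:**
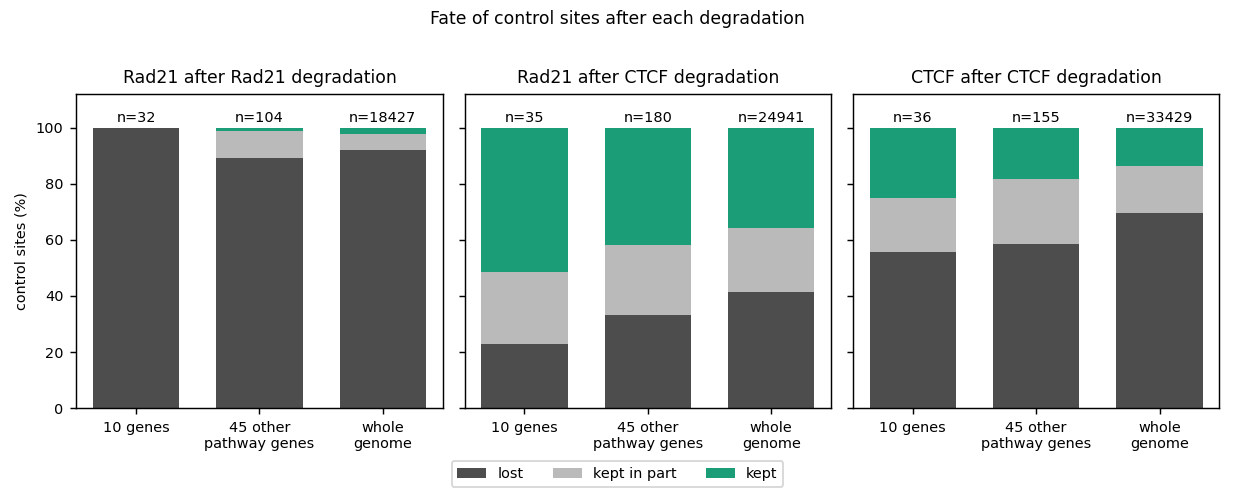
Percent of control sites that were lost (dark), kept in part (grey) or kept (green) after each degradation, for the 10 genes, 45 other pathway genes and all sites of the main nuclear chromosomes, with the number of control sites above each bar. After CTCF degradation, 18 of 35 Rad21 sites and 9 of 36 CTCF sites at the 10 genes were kept.

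Rad21 and CTCF fates were the same at some sites and differed at others. All 9 sites that kept CTCF kept Rad21, where 93.4% of such sites did over the chromosomes. Of the 11 Rad21 control sites that lost CTCF, 6 lost Rad21 (76.3% over the chromosomes), 5 kept it in part (18.9%) and none kept it in every library (4.81%). Of the 7 sites that kept CTCF in part, 4 kept Rad21, 2 kept it in part and 1 lost it, where the shares over the chromosomes were 65.6%, 32.9% and 1.49%. Among Rad21 control sites with CTCF in every parental library, 7 of 10 promoter sites and 6 of 17 distal sites kept Rad21, against 59.2% and 24.2% over the chromosomes. Of the 5 without any parental CTCF peak, 2 of 3 promoter sites and 1 of 2 distal sites did, against 53.6% and 28.6%. Kept Rad21 sites were wider as merged, with a median of 1787 bp against 816 bp for lost ones, and 1340 and 744 bp over the chromosomes. A wider site can be met by a peak more easily. When at least 50% of a site had to be covered, 1 of 13 Rad21 and 0 of 12 CTCF control sites were kept. The shares lost were then 61.5% for Rad21 and 91.7% for CTCF, against 63.7% and 91.8% over the chromosomes. The part of width in these fates was not tested.

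Il7r, which encodes the interleukin 7 receptor alpha chain, had weak peaks. Its promoter site, site 25 (chr15:9454397-9461176, 6780 bp as merged), had parental Rad21 fold enrichments of 6.21, 5.68 and 5.30 and CTCF-degron values of 6.41, 5.95 and 4.60. CTCF there was 3.96, 3.34 and 4.33 in parental cells and 4.64, 6.72 and 4.24 after degradation, so both proteins were kept and the values of the groups overlapped. The middle of the site's highest-ranked parental CTCF peak lies 3405 bp inside the gene. Peaks of different lists at so wide a site need not lie at the start or on each other. Downstream of the gene, site 1 (chr15:9414348-9418657), which runs across the edge of the window, had parental Rad21 of 5.93, 8.35 and 5.85 and CTCF of 5.92, 5.81 and 5.93. Of the depleted libraries only CTCF-degron Rad21 replicate 1 had a peak there, at 3.69. At site 4 (chr15:9420777-9422967), between the gene's end and site 1, Rad21 was 4.96, 5.44 and 5.56 in parental and 7.63, 7.59 and 5.10 in CTCF-degron cells. CTCF peaks lay there in all 3 CTCF-degron lists, at 4.96, 4.45 and 4.22, but in 1 parental list, at 4.31.

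At 4 of the 35 Rad21 control sites, more CTCF-degron than parental CTCF lists had a CTCF peak, against 4.6% over the chromosomes. They were Il7r site 4, the Jak1 promoter (site 17), the Cish promoter (site 3) and Stat locus site 3, beside a 7SK gene. All 4 kept Rad21, but the share of such sites that did over the chromosomes was not worked out. By their definition these sites have a CTCF peak in at least 1 list from depleted cells. Where a CTCF control site kept CTCF, 93.4% of Rad21 control sites over the chromosomes kept Rad21. The 4 of 4 is therefore not read as a trait of these genes.

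Jak1 encodes a kinase bound to many cytokine receptors. Its strongest Rad21 site, site 3 in an intron (chr4:100840605-100841465), had parental Rad21 values of 15.7, 13.0 and 8.57 and CTCF values of 8.71, 7.45 and 11.9, with no peak in any depleted list. Site 1, at the far end of the window in Raver2, was lost likewise, from Rad21 values of 7.94, 7.24 and 3.96 and CTCF values of 8.31, 8.57 and 11.6. The promoter (site 17, chr4:100936379-100938105) had no parental CTCF peak and kept Rad21 in every CTCF-degron list, at 7.89, 6.32 and 4.88 in parental and 6.73, 5.76 and 5.33 in CTCF-degron cells. The third lost Rad21 site (site 20, at the start of Gm12801), with parental values of 4.60, 4.17 and 4.04, had no CTCF peak in any list.

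Jak3 encodes the kinase that pairs with the common gamma chain. Site 1, at -15271 bp from the Jak3 start and within Unc13a (chr8:74184315-74185315), kept both proteins. Rad21 there was 20.8, 16.4 and 8.29 in parental and 19.2, 17.0 and 8.70 in CTCF-degron cells, and CTCF was 9.80, 9.19 and 13.7 against 7.60, 9.66 and 6.01. On the other side of the gene, site 12 at Fcho1 lost both proteins, from Rad21 values of 14.5, 13.6 and 6.08 and CTCF values of 7.61, 6.24 and 10.1. Site 11 lost CTCF and kept a Rad21 peak in CTCF-degron replicate 1 alone, at 3.66 after parental values of 14.7, 13.6 and 5.86. The Jak3 start itself had no control site: site 7 was in 2 parental Rad21 lists, at 4.03 and 4.58, and in all 3 CTCF-degron Rad21 lists, at 5.22, 4.95 and 4.93.

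The Stat5b-Stat5a-Stat3 stretch held the strongest site of all 8 windows. Stat locus site 23 (chr11:100754458-100755383) lies over a coding exon inside Stat3, and counts as a promoter site because the start of an annotated transcript is 66 bp from the middle of its highest-ranked parental CTCF peak. Its Rad21 fold enrichment was 38.9, 31.2 and 16.2 in parental cells (28.7 ± 11.5, SD, n = 3), and its CTCF fold enrichment 17.3, 18.5 and 22.3 (19.4 ± 2.60, SD, n = 3). No Rad21 or CTCF peak remained there in any of the 8 lists from depleted cells. By mean percentile rank within the parental Rad21 lists it placed 18th of the 24941 control sites and 1st of the 10327 that were lost after CTCF degradation, and by CTCF it was 4th of 23297 lost sites. Both ranks rest on the values that classed the site.

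**Figure D2:**
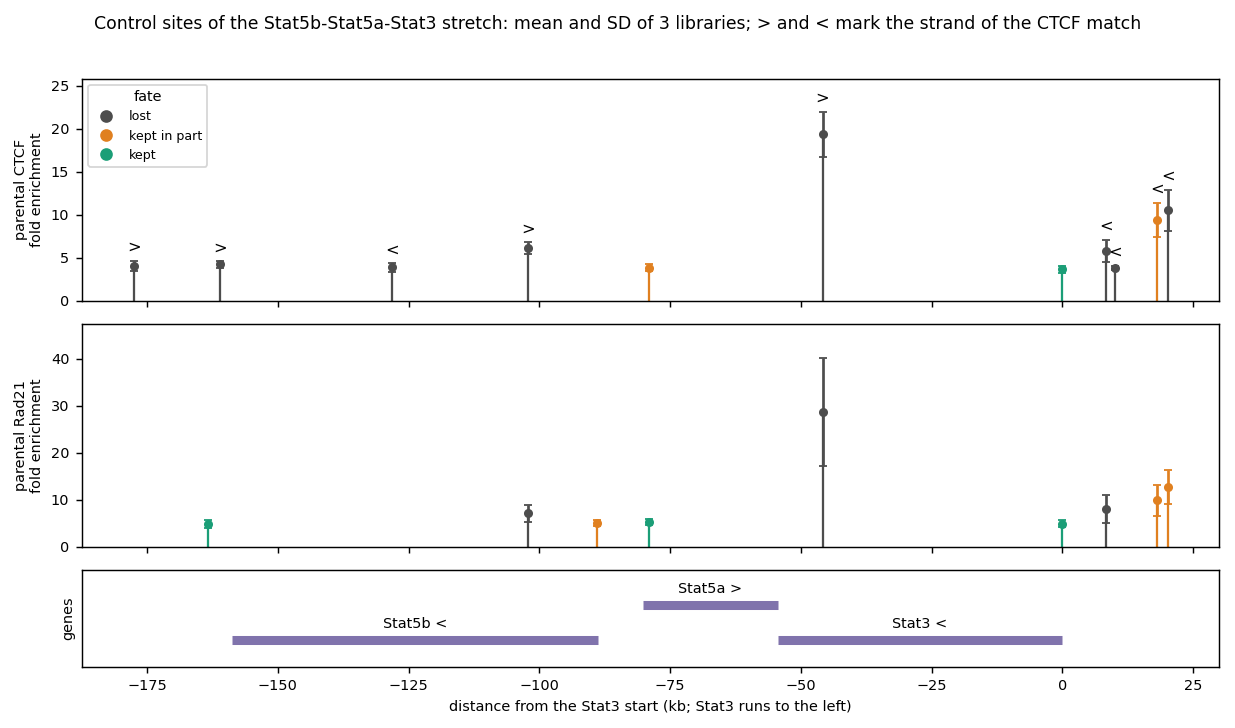
Control sites of the Stat stretch by distance from the Stat3 start (kb), with the mean fold enrichment of the 3 parental libraries and its SD for CTCF (top) and Rad21 (middle), coloured by fate after CTCF degradation, and the 3 genes (bottom). The site inside Stat3 stands at 28.7 for Rad21, above all other sites of the stretch, and the matches on its right point back towards it.

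Of the 9 matches in the stretch, that of site 23 is on the plus strand, and the 4 to its right, at sites 31, 32, 35 and 36, are on the minus strand, 54.1 to 66.1 kb away, so that they face it. To its left, the matches of sites 1, 4 and 13 are on the plus strand and face the same 4 sites, and that of site 7 is on the minus strand. Sites 1, 4, 7 and 32 were not Rad21 control sites. The matched bases of sites 4, 7, 13 and 32 occur at 159, 13, 10 and 602 places in mm9. Convergent CTCF motifs of this kind are known from the ends of chromatin loops; loops were not measured here. Of these, site 36 in Ptrf (chr11:100820619-100821452), across the window's edge, had Rad21 at 16.05, 13.4 and 8.85 and CTCF at 8.76, 9.60 and 13.2. It lost CTCF and kept Rad21 in CTCF-degron replicate 2 alone, at 4.72. Site 35 had Rad21 at 12.4, 11.0 and 6.20 and kept it in 2 libraries, at 4.30 and 4.25, and CTCF in 1, at 4.37. Sites 13, in Stat5b, and 31, upstream of Stat3, lost both proteins.

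The starts of the STAT genes behaved otherwise than site 23. At the Stat3 start (site 30, chr11:100800147-100801466), Rad21 was 5.37, 5.24 and 4.07 in parental and 4.80, 5.22 and 5.70 in CTCF-degron cells, and CTCF was 3.62, 3.31 and 4.05 against 5.24, 6.57 and 4.79. At the Stat5a start (site 19, chr11:100721253-100722605), Rad21 was kept, at 5.86, 5.17 and 4.59 in parental and 7.04, 4.70 and 4.23 in CTCF-degron cells, while CTCF was kept in 2 of 3 libraries. At the Stat5b start (site 17, chr11:100711168-100712944), Rad21 was 5.43, 5.35 and 4.24 in parental cells and was kept in 2 of 3 libraries, at 5.42 and 4.47. All 3 starts were weak sites, and their Rad21 values in the 2 conditions overlapped where peaks were called.

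Cish encodes a cytokine-induced inhibitor that binds activated receptors, and is a classic STAT5 target. Its promoter site (site 3, chr9:107197781-107199798) kept Rad21, at 4.29, 4.82 and 4.56 in parental and 4.43, 4.38 and 3.99 in CTCF-degron cells. The RefSeq promoter (300 bases, GRCm38.p6) was found letter for letter in mm9 and holds TTCNNNGAA at 2 places, directly at the RefSeq start and 11 bases on; 0.457% of 32851 promoters of that length hold 2 or more, and 8.3% hold at least 1. The letters are the same on both strands, and a match is a description, not a site. These 30 bases carry both, in capitals.
Cish, chr9:107198985-107199014, plus strand: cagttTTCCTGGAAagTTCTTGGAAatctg
Of the other members found in the promoter table, Il7r alone holds the letters, 142 bases upstream of its start.
Il7r, chr15:9459754-9459783, minus strand: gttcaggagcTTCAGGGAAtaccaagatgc
In all, 9 of the 10 genes were matched in that table. Among the CTCF control sites in the windows, 5 of 36 held TTCNNNGAA in the 500 bp centred on the highest-ranked parental CTCF peak. That share was 13.9%, against 14.1% elsewhere and 14.5% of sequences 5 kb away.

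The 2 strong sites upstream of Cish parted. Site 1, at -4987 bp from the Cish start and near that of Mapkapk3 (chr9:107191588-107193916), kept both proteins, with Rad21 at 13.8, 18.0 and 10.5 in parental and 11.8, 11.9 and 5.37 in CTCF-degron cells. Site 2, at -1593 bp (chr9:107196329-107197210), was stronger for Rad21 in 2 of the 3 parental lists, at 25.1, 21.8 and 9.84, and lost CTCF, whose parental values of 9.61, 8.01 and 12.3 were close to the 7.87, 9.12 and 14.9 of site 1. Rad21 remained at site 2 in 2 CTCF-degron lists, at 4.76 and 4.80. Within each CTCF-degron list site 1 was the higher of the pair, whereas site 2 was the higher in 2 of 3 parental lists. In untreated Rad21-degron cells site 1 was slightly the higher in both lists, at 8.32 and 7.67 against 8.24 and 7.37.

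Socs1 and Socs2 encode inhibitors that act on the JAK kinases and on receptors. Their promoter sites had strong CTCF in parental cells and kept Rad21. Both sites are wide as merged, and peaks of different lists there need not lie on each other. At Socs1 site 9 (chr16:10783915-10787558), Rad21 was 13.9, 11.5 and 7.74 in parental and 7.25, 6.43 and 5.08 in CTCF-degron cells, and CTCF was 11.5, 9.53 and 13.1 against 4.46, 6.72 and no peak. At Socs2 site 10 (chr10:94876021-94882098), Rad21 was 11.9, 10.0 and 6.75 against 6.09, 5.58 and 4.75, and CTCF was 9.47, 10.1 and 12.1 against 4.55, 4.70 and no peak. At both, the CTCF-degron values of Rad21 and of CTCF lay below the parental ones without overlap, but fold enrichments of separately made lists share no common scale. Socs1 site 1, 18295 bp from the start on the side of the gene's end, kept both proteins, as did Socs2 site 7 in the gene body, while Socs2 site 3 kept Rad21 and kept CTCF in part.

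Pim1 encodes a serine/threonine kinase that promotes survival and growth. Its promoter site (site 4, chr17:29625697-29631785, 6089 bp as merged) kept both proteins, with Rad21 at 9.12, 7.86 and 7.51 in parental and 5.55, 6.65 and 5.70 in CTCF-degron cells. The middle of this site's highest-ranked parental CTCF peak lies 2386 bp inside the gene. Between the promoter and the far end of the window, sites 11 and 12, whose sequences are shown above and share 38 of 60 bases, had weak Rad21 in parental cells, at 6.91, 6.87 and 4.26 and at 5.43, 5.95 and 4.58. Site 11 lost Rad21 and kept CTCF in 1 library, at 4.33, and site 12 lost CTCF and kept Rad21 in 1 library, at 4.68.

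Beyond them, 2 strong neighbours 5 bp apart as merged, sites 14 (chr17:29649189-29651035) and 15 (chr17:29651040-29651981), both kept CTCF and Rad21. Site 15, which holds the sequence printed above, had Rad21 at 26.5, 19.2 and 12.1 in parental and 18.1, 15.8 and 9.07 in CTCF-degron cells. Site 14, without a match, had 22.2, 21.1 and 11.9 against 7.65, 5.95 and 5.44. Because both values come from the same list, a factor common to the whole list cancels in their ratio. Other differences between lists need not cancel. Site 15 over site 14 was 1.20, 0.91 and 1.02 for Rad21 in parental cells and 2.37, 2.65 and 1.67 in CTCF-degron cells, without overlap. For CTCF it was 1.13, 1.74 and 1.09 in parental and 2.27, 2.56 and 1.99 in CTCF-degron cells, again without overlap, and for Rad21 in untreated Rad21-degron cells 1.27 and 1.40. The untreated Rad21-degron ratios thus lay above all parental Rad21 ratios, so groups without IAA also did not overlap. This pair of sites was chosen after its values were seen.

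**Figure D3:**
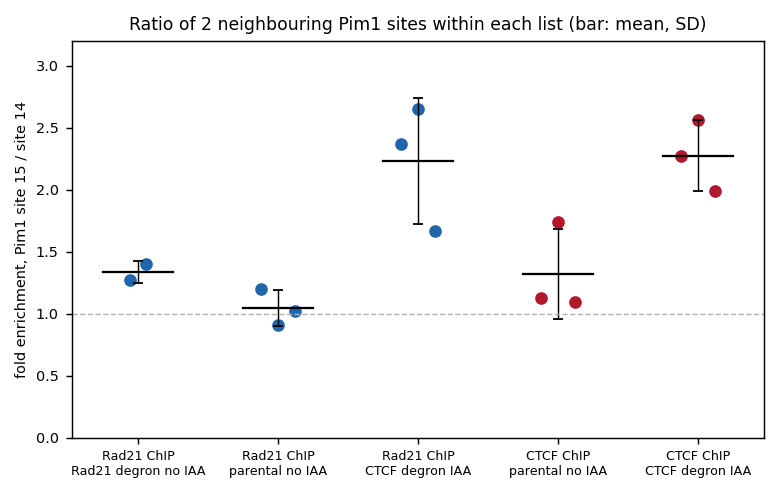
Fold enrichment of Pim1 site 15 divided by that of site 14 within each list that has both peaks (points), with the group mean and SD (bars), for Rad21 ChIP in blue and CTCF ChIP in red. The CTCF-degron lists stand at 1.67 to 2.65 and the parental lists at 0.91 to 1.74, and the groups of each antibody do not overlap.

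**Figure D4:**
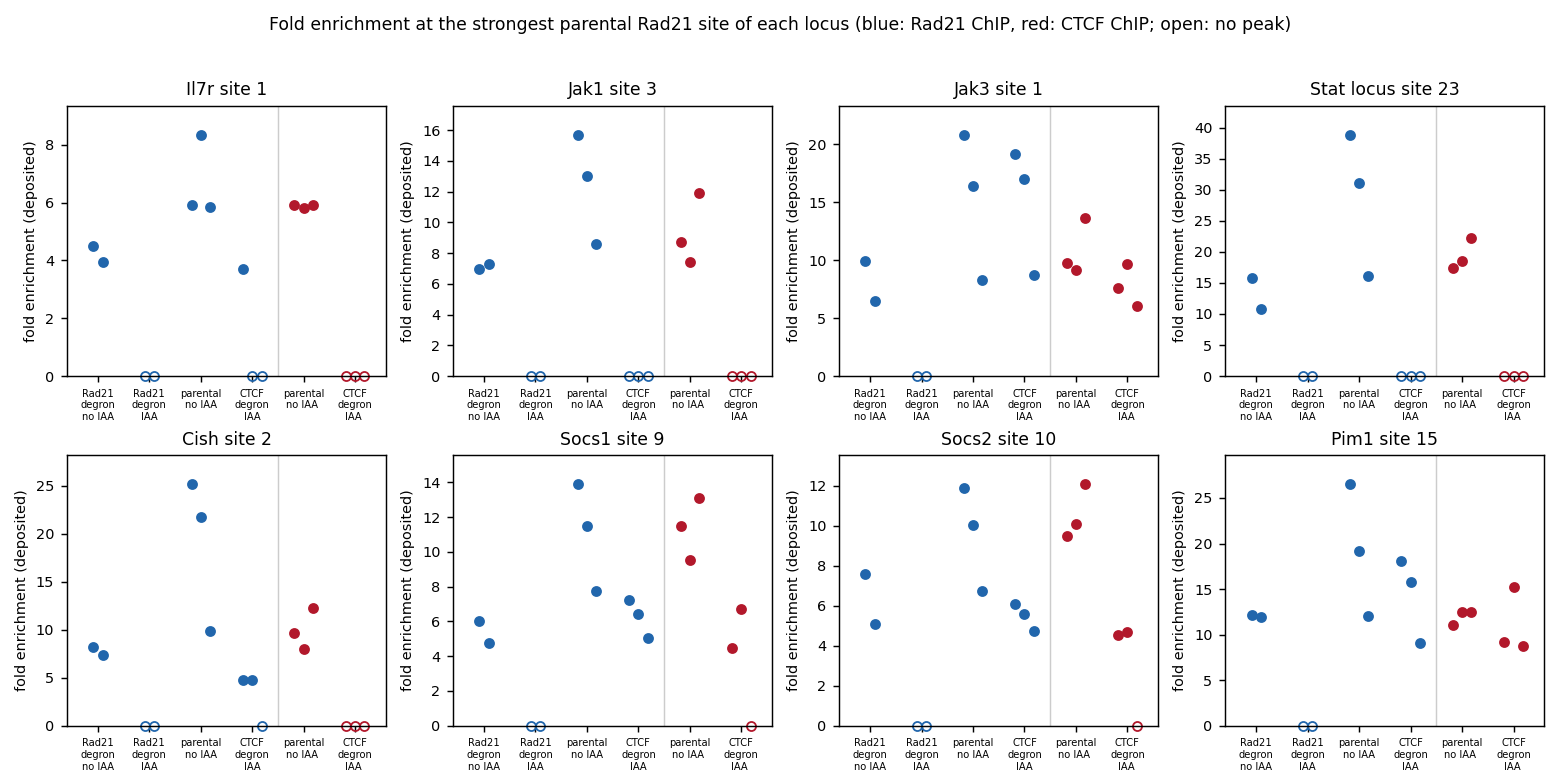
Deposited fold enrichment in each of the 16 lists at the strongest parental Rad21 site of each locus, by group, with open symbols at 0 for a list with no peak there. No site has a peak in the Rad21-degron lists with IAA, and Jak3 site 1, Socs1 site 9, Socs2 site 10 and Pim1 site 15 have a Rad21 peak in all 3 CTCF-degron lists.

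The choice of 20 kb decided which distant sites were counted. Il7r site 1 and Stat locus site 36 lay across an edge. Of the others, the control sites nearest to an edge were Jak3 site 12, 98 bp inside, with parental Rad21 of 14.5, 13.6 and 6.08, and a site 364 bp outside the Stat window (chr11:100620567-100621681), with 7.40, 7.06 and 4.67, which lost CTCF and kept Rad21 in part.

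Of 45 other genes of the pathway, taken from a list of receptors, kinases, STATs, inhibitors and targets, all were found and 44 had a parental Rad21 control site within 20 kb. Their strongest Rad21 site was lost after CTCF degradation for 18 genes, kept for 18 and kept in part for 8. The like count over all genes was not made. Ptpn6 (a phosphatase that dampens cytokine signalling), Crlf2 and Il4ra (cytokine receptors) had the strongest lost sites, with parental means of 18.3 ± 6.12, 15.2 ± 5.56 and 14.9 ± 5.52 (SD, n = 3 each). Osm (a cytokine), Sh2b3 (an adaptor that restrains JAK signalling) and Ccnd3 (a cyclin) had the strongest kept ones, at 27.0 ± 10.3, 20.2 ± 6.45 and 20.1 ± 6.87. The Ptpn6 site lay in an intron of Gm15884, the Osm site in one of Lif and the Ccnd3 site in one of Ccnd3. Those of Crlf2, Il4ra and Sh2b3 lay between genes. Over all sites of the 45 genes not shared with the 10 genes, 60 of 180 Rad21 control sites were lost (33.3%) and 75 kept (41.7%). Over the chromosomes the shares were 41.4% and 35.7%. For CTCF, 91 of 155 control sites were lost (58.7%) and 28 kept (18.1%), against 69.7% and 13.6%. After Rad21 degradation, 93 of 104 Rad21 control sites were lost (89.4%), against 92.3%. None of these shares was split into promoter and distal sites.

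The 3 sites elsewhere most like the Stat3 site over the 16 lists, by Euclidean distance of log2(fold enrichment + 1) with 0 for no peak, lay in an intron of Mrc1 (distance 0.29), between genes near Hif1an (0.72) and in an intron of Fbxl17 (0.81). The Mrc1 site had parental Rad21 values of 34.1, 30.5 and 15.8 and CTCF values of 15.9, 17.8 and 22.2, and like the Stat3 site had no peak in any list from depleted cells.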

How the data were processed

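ChIP-seq of Rad21 and CTCF was deposited as 16 broadPeak lists, 1 per library, with replicates not pooled; the 8 input libraries were not used here. Per the labels, the alignment used a reference that joins mm9 with a further sequence entry; per the submitters' processing notes, Bowtie2 2.2.8 and SAMtools 1.8 were used. The peak caller, its threshold and its use of inputs are not given in the sources used here. Each deposited peak carries a fold enrichment on a linear scale (column 7), a -log10 p-value (column 8), a -log10 q-value (column 9) and a score made from the last of these (column 5). Of the lists, 8 name a human HCT116 spike-in and hold peaks on hg19 contigs, which were left out. Replicate 1 of parental and of CTCF-degron Rad21 and all CTCF lists have none. Human peaks numbered 11861 and 14878 in untreated Rad21-degron lists and 5603 and 5481 with IAA. They numbered 9640 and 1748 in parental Rad21 replicates 2 and 3, and 1675 and 319 in those of CTCF-degron Rad21. What part such differences between lists have in the lost sites was not tested.

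Mouse peaks overlapping by at least 1 bp across lists were merged into sites (Python 3.11.15, pandas 2.3.3, numpy 2.4.6, pysam 0.24.0). Fold enrichment was used as the authors gave it, within a list, with the highest peak of a site as its value. The members and lists of genes were chosen with earlier results of these data known. Peak ends fitted mm9 lengths on all chromosomes but 12, which holds no member. The genes and sites named are all 10 members, at most 3 strongest control sites per locus, promoter sites and sites whose fates differ, and by rank 3 lost and 3 kept other pathway genes.

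A CTCF matrix of 20 bases was learnt from 7971 CTCF control sites outside the windows, the strongest 25%, seeded with a consensus of the CTCF core, and the match threshold was set to pass 5% of sequences 5 kb away. The share of sites used, the pseudocount (1%) and the number of rounds (2) were not fixed in advance. They were taken after 51 settings had been tried, for the share of sites outside the windows that matched (34.1 to 67.6% over the settings, 66.6% for the one used), with the counts at the 10 genes in view for some of them. Methods were tested on simulated data. Alternatives and their effect are given at the end.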

Additional observations from a re-analysis of the deposited data

How the results depend on the processing

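The number of lost sites at the 10 genes was recomputed under other settings. Rad21 sites lost after Rad21 degradation numbered 32, and 13 at a q-value of 0.001 or less, 3 with lists shortened to the shortest, 3 when at least 50% of a site had to be covered and 19 with windows of 10 kb; all control sites were lost in each of these. Rad21 sites lost after CTCF degradation numbered 8, and 3 with shortened lists, 78 when 1 control library sufficed and 16 with windows of 50 kb. CTCF sites lost numbered 20, and 13 at a fold enrichment of 4 or more, 1 with shortened lists, 11 at 50% coverage, 48 when 1 control library sufficed and 32 with windows of 50 kb. Leaving out 1 library gave 32 to 45, 8 to 22 and 20 to 22 for the 3 counts; the 22 lost Rad21 sites came without parental Rad21 replicate 3, the shortest parental Rad21 list. The cause of these moves was not tested. The percent of Rad21 sites lost after CTCF degradation was below that of all chromosomes in 16 of 18 settings other than the pairs (by 18.5 points as reported, from 19.2 below to 19.6 above), and the percent of CTCF sites lost in 16 of 17 (by 14.1 points, from 19.1 below to 40.6 above). The settings above it were the shortened lists, with 4 and 1 control sites left, and for Rad21 also 1 control library. None of these settings separated promoter from distal sites. At 50% coverage the gap nearly closed. Rad21 sites lost were 61.5% against 63.7%, with 1 of 13 control sites kept. CTCF sites lost were 91.7% against 91.8%, with 0 of 12 kept. Merging sites from control lists alone and judging a site at its strongest control peak, both added after seeing the data, gave 34 and 34, 8 and 8, and 23 and 24.

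The labels number the libraries of each group, but nothing says that a number marks a shared culture. Pairing same-numbered libraries (a replicate block), the sites lost within each pair numbered 45 and 32 for Rad21 after Rad21 degradation, 79, 28 and 20 for Rad21 after CTCF degradation and 36, 33 and 34 for CTCF; a pair has 1 control list, so other sites count as control sites. The percent lost at the 10 genes was below that of all chromosomes in each pair after CTCF degradation, except for Rad21 in pair 1 (63.2% against 60.4%).

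CTCF matches numbered 21 of 36 sites, and 7 with a threshold passed by 1% of distant sequence and 4 with the core letters without mismatch. Over the 51 matrix settings, chosen after seeing the data, they numbered from 13 to 21, so the count as reported is the highest of that range.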
